A study of Mus musculus with 4 samples.

Results

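To see how the genes of plaque-associated microglia behaved in the cortex of 12-month-old APP/PS1 mice, the counts of 10 genes were followed in each library: Clec7a, Itgax, Axl, Cd68, Cd9, Cd63, Cd52, Gpnmb, Lgals3 and Spp1. They were selected by name, as genes known from microglia around amyloid plaques, among 22919 features counted per gene symbol (37539 transcripts). The list was drawn up with the counts of these libraries already known, so the differences between genotypes given below for the 10 genes are a description. The samples were cortex from 2 male APPswe/PS1ΔE9 double transgenic mice (APP), which carry a human APP with the Swedish mutation and a mutant presenilin 1, and from 2 age-matched male wild type (WT) mice. The labels give the C57BL/6 background and an age of 12 months for both genotypes, the WT controls being C57BL/6J by the methods. All mice were anesthetized and killed by cervical dislocation, and no other treatment is named. The transgenes of this line are expressed from the mouse prion protein promoter, chiefly in neurons, so microglia meet the amyloid but are not themselves the intended site of the transgenes. Libraries are named APP-3, APP-4, WT-1 and WT-2 as in the deposited table. The labels do not tie an APP library to 1 of the 2 APP mice.

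Microglia are the resident macrophages of the brain. Around amyloid plaques they are known to turn down part of their resting program and to turn on receptors for recognition and adhesion, lysosomal proteins, and secreted lectins and matrix proteins. The 10 genes cover these roles. Clec7a encodes dectin-1, a pattern receptor for beta-glucan that signals through the kinase Syk. Itgax encodes CD11c, an integrin alpha chain that pairs with the beta chain from Itgb2. Axl is a receptor tyrosine kinase of the TAM family that binds apoptotic cells through the bridging ligand Gas6. Cd9 and Cd63 are tetraspanins, the latter mostly in late endosomes and lysosomes. Cd68 and Gpnmb encode heavily glycosylated membrane proteins, of which CD68 sits largely in lysosomes. Cd52 encodes a short peptide with a lipid anchor. Lgals3 (galectin-3) and Spp1 (osteopontin) are secreted. Hence not all of the 10 are cell surface proteins, and Axl, Cd9, Cd63 and Spp1 are also known from other brain cells.

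The libraries held between 28525117 and 43881196 counts. All 9 cortical neuron markers listed (among them Snap25 and Slc17a7) were counted, and their summed level ran from 4000 to 4800 CPM in APP and from 4420 to 4510 in WT. CPM is the count scaled to a library of 1000000 counts, with library sizes normalised by TMM. Features were called by edgeR's quasi-likelihood test, fitted over all 22919 of them, where the change was at least 1.5-fold with an FDR under 0.05. A permutation test of a single gene in 2 against 2 mice is limited to an exact two-sided p of 0.333 or more, and the adjusted p-values therefore depend on the variance that edgeR borrows across genes. In bulk cortex, a change in the number of cells of a type and a change in RNA per cell cannot be told apart.

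The promoters of Clec7a and Itgax are shown because these genes differed most between the genotypes, together with that of Cd68, which came next among the genes with a RefSeq window. They are the 250 bases before a RefSeq start on GRCm38.p6, for Clec7a at chr6:129472780-129473029 (minus strand), for Itgax at chr7:128129300-128129549 (plus strand) and for Cd68 at chr11:69666171-69666420 (minus strand). Each is written 5′ to 3′ along the gene's own strand, and capitals mark TGACTCA or its other strand TGAGTCA, the core letters that AP-1 factors bind.
Clec7a: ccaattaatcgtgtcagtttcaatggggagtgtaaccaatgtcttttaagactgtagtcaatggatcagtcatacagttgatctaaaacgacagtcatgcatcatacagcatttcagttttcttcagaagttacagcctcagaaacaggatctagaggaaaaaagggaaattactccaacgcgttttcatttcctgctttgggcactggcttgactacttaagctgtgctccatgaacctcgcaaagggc
Itgax: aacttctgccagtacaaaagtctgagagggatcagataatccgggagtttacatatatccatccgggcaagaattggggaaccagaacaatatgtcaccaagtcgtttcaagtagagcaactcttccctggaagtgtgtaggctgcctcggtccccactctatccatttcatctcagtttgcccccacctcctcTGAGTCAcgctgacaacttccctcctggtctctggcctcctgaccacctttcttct
Cd68: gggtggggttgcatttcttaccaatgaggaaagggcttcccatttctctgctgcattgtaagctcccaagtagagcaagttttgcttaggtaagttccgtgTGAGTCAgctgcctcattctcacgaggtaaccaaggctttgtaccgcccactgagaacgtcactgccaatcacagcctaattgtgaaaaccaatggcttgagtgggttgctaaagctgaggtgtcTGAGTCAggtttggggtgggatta

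RefSeq windows were at hand for 9 of the 10 genes, Cd52 being the exception, in 11 windows. The AP-1 letters occurred in Itgax once, 56 bases before the start, and in Cd68 at 149 and at 24 bases before it. These were 2 of the 11 member windows, against 4.46% of all 32851 windows. The letters GAGGAAG or CTTCCTC, a core bound by ETS factors such as PU.1, occurred in 3 of the 11 member windows, against 10.6% of all windows. The genes of these windows were Axl, Cd63 and Spp1. The Cd63 window (chr10:128909095-128909344) belongs to another start than that of the counted transcript Cd63-201, which begins downstream at 128909699. TATAAA or TTTATA was found in 1 of the 11 member windows, that of Spp1, against 12.4% of all windows. The E-box CACGTG, bound by MiT factors, was in 0 of the 11 member windows and in 6.02% of all windows. These are matches of letters in short windows, not binding sites.

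Of the 10 genes, 7 passed both cut-offs, all higher in APP, where 0.908% of all features were called in this direction. The genes were Clec7a, Itgax, Cd52, Cd68, Cd9, Cd63 and Axl. Lgals3, Gpnmb and Spp1 exceeded 1.5-fold but did not pass the FDR cut-off (adjusted p = 0.248, 0.462 and 0.278 by edgeR's quasi-likelihood test). Both APP libraries lay above both WT libraries for 9 of the genes, against 21.1% of all features, and the groups overlapped for Gpnmb. The median log2 fold change of the 10 genes was 1.34, beside 0.00 over all features.

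**Figure D1:**
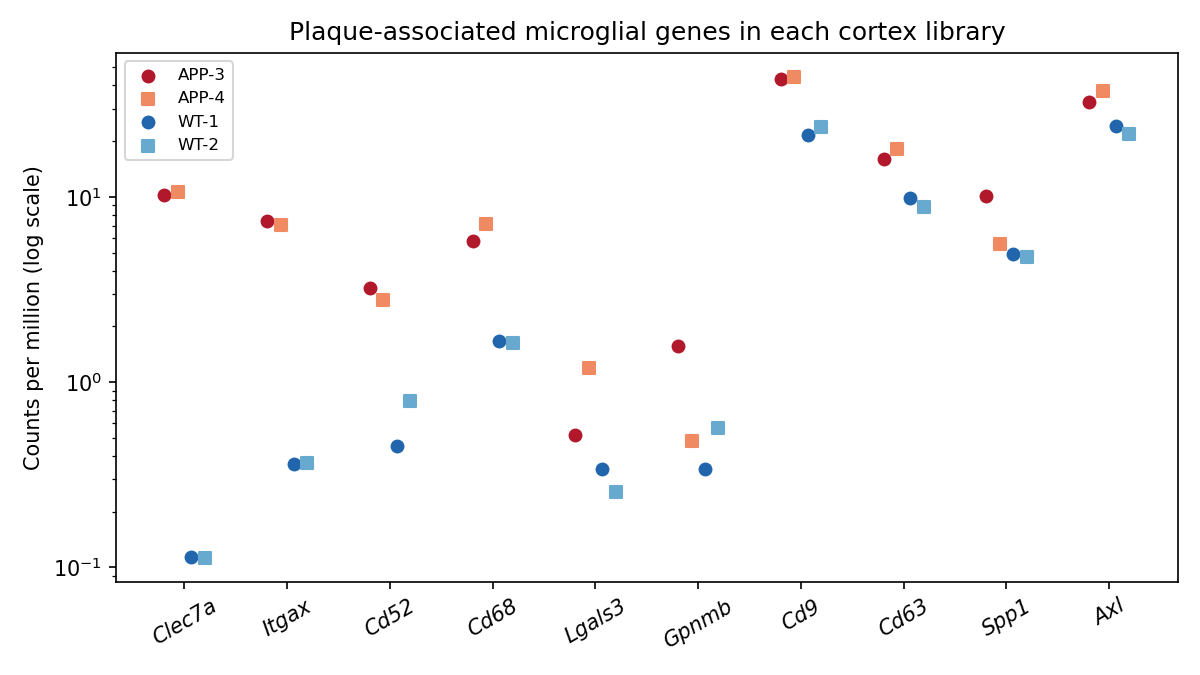
CPM (log scale) of each gene in the 4 cortex libraries, ordered by fold change, with 1 point per library. Clec7a is near 10 CPM in both APP libraries and near 0.11 in both WT libraries, while the APP points of Gpnmb lie on either side of a WT point.

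The pattern receptor Clec7a showed the largest difference of the set. It was counted 298 times in APP-3 and 330 times in APP-4, but 5 and 4 times in WT-1 and WT-2. Scaled, the APP cortex had 10.5 ± 0.25 CPM and the WT cortex 0.113 ± 0.000605 (SD, n = 2). The difference was 6.49 on the log2 scale, with a 95% interval from 5.94 to 7.03, which is too narrow for so few WT counts. The APP libraries lay within counting error of each other, and the WT value rests on fewer than 10 counts in all. In GENCODE M21 (GRCm38) the gene lies on the minus strand of chromosome 6 and is annotated as a polymorphic pseudogene, while the counted transcript Clec7a-201 (129461591 to 129472777, 6 exons, 2277 nt) is protein coding. A further transcript, Clec7a-203, carries no symbol in the deposited table and was therefore not in the sum. APP-3 had 7 counts on it, APP-4 had 14 and both WT libraries had 0. With each WT library set to 3 counts, its observed mean in APP was 4.54-fold that in WT, which does not allow for counting error in APP. GENCODE M21 lists it as a retained intron transcript, with 46.4% of its bases in exons of Clec7a-201.

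For Itgax, the CD11c integrin chain, APP-3 had 214 counts, APP-4 had 219, WT-1 had 16 and WT-2 had 13. The mean was 7.23 ± 0.231 CPM for APP and 0.365 ± 0.00205 for WT (SD, n = 2), or 4.30 on the log2 scale (95% interval 3.81 to 4.78). As for Clec7a, this interval is too narrow for so few WT counts. The replicates of each genotype again lay close together. The WT values rest on 16 and 13 counts, however, and the 95% counting interval of the WT-1 to WT-2 ratio in CPM ran from 0.447 to 2.24. All of these counts were on Itgax-201 (chromosome 7, 128129547 to 128150657, plus strand, 30 exons).

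Cd52, the anchored peptide of leukocytes, was counted 93 and 86 times in APP but 20 and 28 times in WT, a difference of 2.29 on the log2 scale (95% interval 1.64 to 2.94). Cd68, the macrophage lysosomal glycoprotein, was counted 168 and 221 times in APP but 73 and 58 times in WT, which is 6.47 ± 0.939 CPM against 1.65 ± 0.0168 (SD, n = 2). Its log2 fold change was 1.97 (95% interval 1.56 to 2.39). In both genes the lower APP library was well above the higher WT library.

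The remaining called genes differed by about 2-fold or less from a higher base. For Cd63 the counts were 465 and 564 in APP, 433 in WT-1 and 312 in WT-2, and since the WT libraries were deeper this was 17.1 ± 1.51 CPM against 9.32 ± 0.738 (SD, n = 2). The log2 fold change of Cd63 was 0.88 (95% interval 0.61 to 1.14). Axl had 32.4 and 37.5 CPM in APP-3 and APP-4 and 24.3 and 21.8 in WT-1 and WT-2. At 1.51-fold it stood just past the fold change cut-off, with a log2 value of 0.60 (95% interval 0.38 to 0.81), and it fell below that cut-off without APP-4 (0.49) or without WT-2 (0.52).

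**Figure D2:**
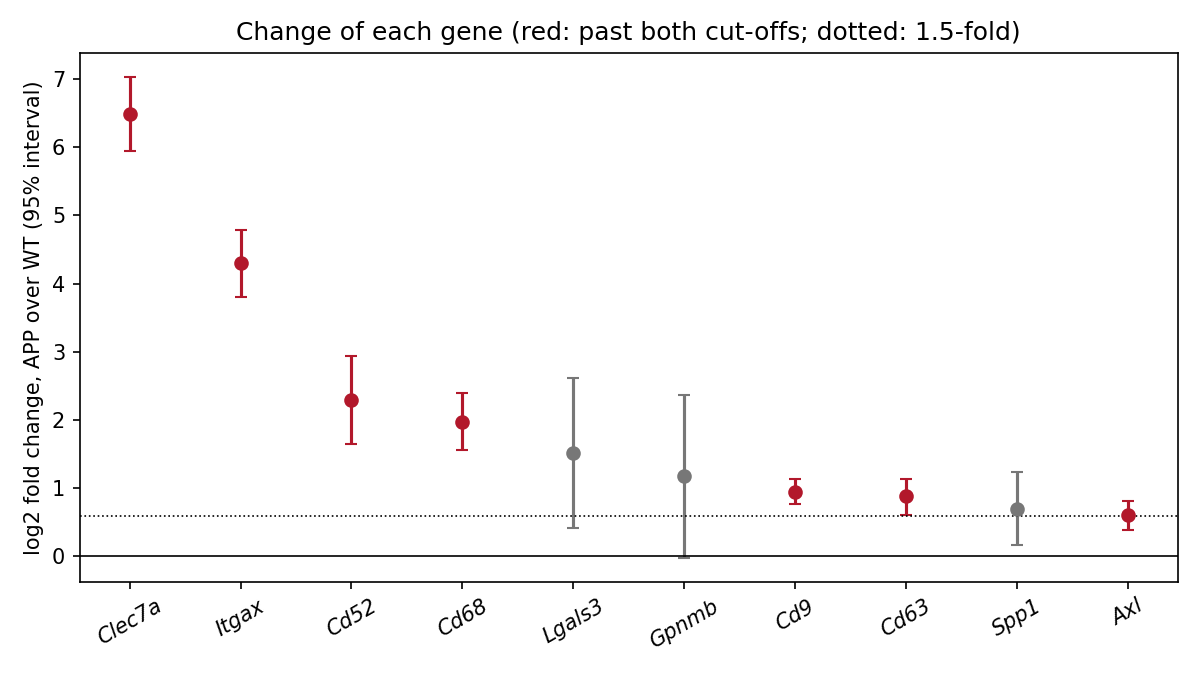
Log2 fold change of each gene, APP over WT, with its 95% interval from the F statistic of edgeR's quasi-likelihood test. The intervals of Clec7a and Itgax are too narrow for their few WT counts. Red points passed both cut-offs, grey points did not, and the interval of Gpnmb (-0.02 to 2.37) includes 0.

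Cd9 was the most abundant gene of the set and the one with 2 transcripts under its symbol. Their sum was 43.5 and 44.4 CPM in APP-3 and APP-4 and 21.6 and 24.0 in WT-1 and WT-2, or 0.95 on the log2 scale (95% interval 0.77 to 1.13). The protein coding Cd9-201 (chromosome 6, minus strand, 125460266 to 125494791, 8 exons) took 1077 and 1182 reads in APP but 681 and 627 in WT. Over all 37539 transcripts, of which 0.749% were called higher in APP, its log2 fold change was 1.19 (95% interval 0.98 to 1.39), larger than that of the sum. Cd9-203, a retained intron transcript within the same gene (125462116 to 125463024), took 182 and 192 reads in APP but 268 and 224 in the deeper WT libraries. Scaled, these are 6.24 ± 0.115 CPM for APP and 6.20 ± 0.174 for WT (SD, n = 2), a difference of 0.01 on the log2 scale (95% interval -0.30 to 0.33). Of the 786 bases of Cd9-203, 23.8% lie in exons of Cd9-201 and the rest in its introns, so reads in the shared part could be counted on either transcript. The share of the gene's counts on Cd9-203 was 14.5% and 14.0% in APP against 28.2% and 26.3% in WT. The groups did not overlap on this share, a comparison that was chosen after the values were seen.

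**Figure D3:**
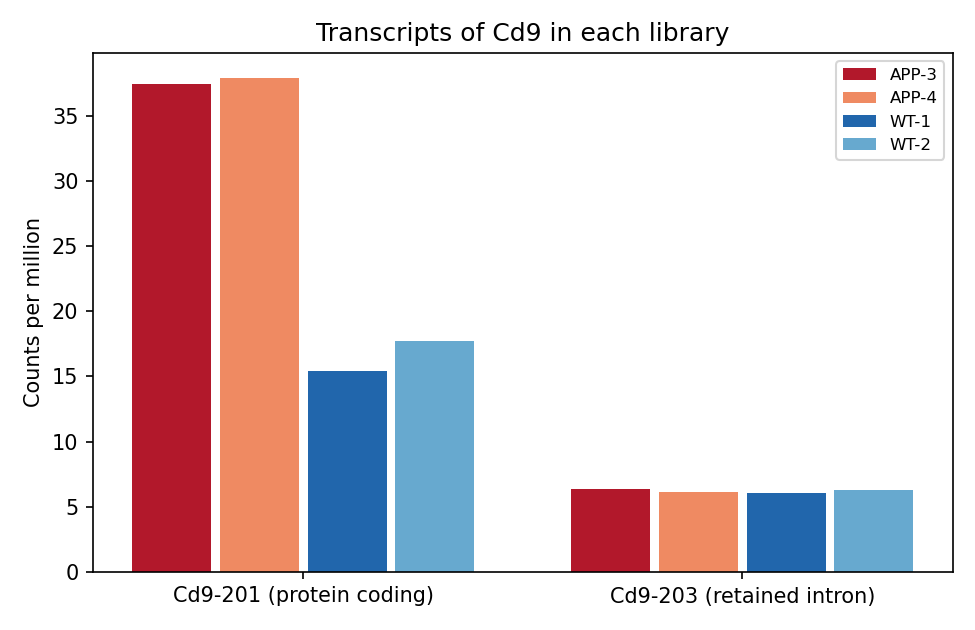
CPM of the 2 counted transcripts of Cd9, with 1 bar per library. Cd9-201 stands at 37.4 and 37.9 CPM in APP and at 15.4 and 17.7 in WT, while Cd9-203 lies between 6.08 and 6.33 in all 4 libraries.

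In the 3 genes that did not pass, the APP libraries differed from each other by a larger ratio than in any of the 7 called genes. For Spp1 (osteopontin), APP-3 held 292 counts, APP-4 172, WT-1 216 and WT-2 168. In CPM this was 10.1 and 5.55 in APP and 4.91 and 4.74 in WT, so APP-4 was barely above WT. The log2 fold change of Spp1 was 0.69 (95% interval 0.16 to 1.23). It was 0.20 when APP-3 was left out and 1.06 when APP-4 was.

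Gpnmb was counted 45 times in APP-3 but 15 times in APP-4, beside 15 and 20 times in WT, with a log2 fold change of 1.18 (95% interval -0.02 to 2.37). Leaving out APP-3 brought this value to 0.12, and leaving out APP-4 to 1.8. Lgals3 went the other way between the APP libraries: APP-3 held 15 of its counts, APP-4 37, WT-1 15 and WT-2 9. Its log2 fold change was 1.51 (95% interval 0.41 to 2.61), against 1.97 with APP-4 as the single APP library and 0.78 with APP-3. With a single APP library kept, which is then assumed to vary like WT, Spp1 and Gpnmb passed both cut-offs in APP-3 and Lgals3 passed in APP-4.

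The ratio of APP-3 to APP-4 in CPM was 3.21 for Gpnmb (95% counting interval 1.76 to 6.20), 1.82 for Spp1 (1.5 to 2.21) and 0.434 for Lgals3 (0.221 to 0.810). For the 7 called genes it ran from 0.814 for Cd68 to 1.16 for Cd52, and of these the intervals of Axl (0.791 to 0.942) and Cd68 (0.662 to 0.999) did not include 1. The intervals are exact binomial ones and cover counting error only. Between WT-1 and WT-2 the ratio ran from 0.576 for Cd52 to 1.34 for Lgals3, and the intervals of Axl (1.01 to 1.22) and Cd9 (0.819 to 0.987) did not include 1.

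**Figure D4:**
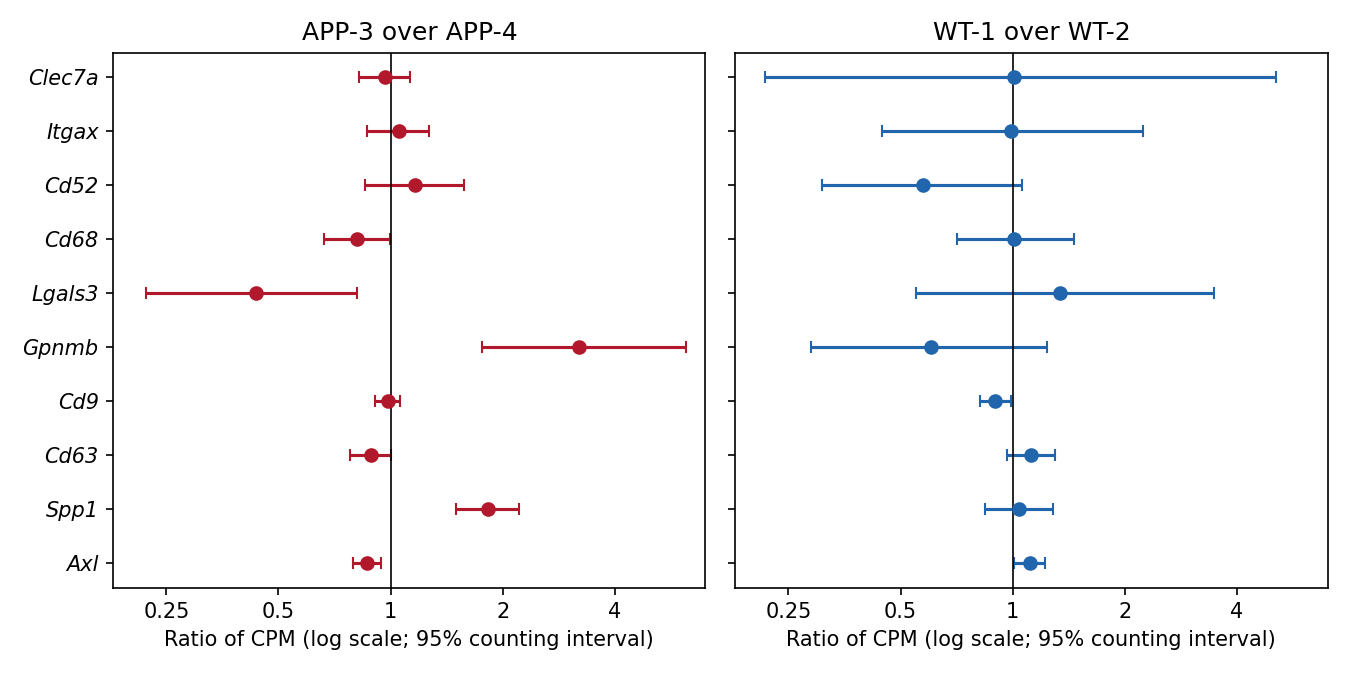
Ratio of CPM between the libraries of 1 genotype (log scale) with 95% counting intervals, APP-3 over APP-4 on the left and WT-1 over WT-2 on the right. Gpnmb and Spp1 lie to the right of 1 and Lgals3 to the left in APP, and these 3 genes lie farthest from 1.

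Levels were set against each other per kilobase of the main transcript, so that genes of different length can be compared. In WT the order from high to low was Cd9 (13.5 CPM per kilobase), Cd63 (8.76), Axl (5.41), Spp1 (3.42), Cd68 (1.34), Cd52 (1.21), Lgals3 (0.209), Gpnmb (0.122), Itgax (0.0902) and Clec7a (0.0497). Cd68 and Cd52 overlapped in WT, and the 4 lowest genes rest on 20 counts or fewer per library. In APP, Cd9 (30.7), Cd63 (16.1) and Axl (8.19) kept the top 3 places. They were followed by Cd52 (5.83), Spp1 (5.55), Cd68 (5.26) and Clec7a (4.60), where Spp1 overlapped with each of the other 3 and Cd52 with Cd68. Itgax (1.79) came next, then Lgals3 (0.604) and Gpnmb (0.276), which overlapped. Clec7a thus stood last in WT and at place 7 in APP.

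The level of each gene was also expressed against 15 microglial markers summed (among them Cx3cr1, C1qa and P2ry12). The summed level of these markers was 340 and 388 CPM in APP and 205 and 216 in WT. Of the markers 9 of 15 passed both cut-offs, all higher in APP, where 0.908% of all features were called in this direction. The called markers were Cx3cr1, Csf1r, Siglech, P2ry13, Gpr34, Aif1, C1qa, C1qc and Ptprc, with log2 fold changes from 0.69 to 1.25. The median of the 15 was 0.74. Clec7a equalled 3.03% and 2.74% of the marker sum in APP-3 and APP-4 and 0.0554% and 0.0522% in WT-1 and WT-2. Itgax equalled 2.18% and 1.82% in APP and 0.177% and 0.170% in WT, and Cd68 1.71% and 1.84% against 0.808% and 0.756%. For these and for Cd52 the APP libraries remained above WT on this scale. Cd63 did not separate, with 4.73% and 4.69% in APP and 4.79% and 4.07% in WT. Cd9 was at 12.8% and 11.4% in APP and at 10.5% and 11.1% in WT, so its APP libraries were also above WT. The nearest libraries of the genotypes, APP-4 and WT-2, lay closer together than the libraries within either genotype. Axl was at 9.54% and 9.66% in APP and at 11.8% and 10.1% in WT, lower in both APP libraries but by less than the WT libraries differed from each other. The groups overlapped on this scale for Spp1, Gpnmb and Lgals3, the last with 0.153% and 0.308% in APP and 0.166% and 0.117% in WT.

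Markers of other cells that could contribute reads were counted beside these genes, and their part in the result was not tested. All 10 oligodendrocyte markers were higher in both APP libraries, against 21.1% of all features. Their median log2 fold change was 0.52 with 1 call (Mag), and their summed level was 1850 and 1610 CPM in APP against 1180 and 1320 in WT. Of the 10 astrocyte markers 2 were called, Gfap (log2 fold change 2.82) and Aqp4 (0.73), with a median of 0.17 and sums from 4760 to 5100 CPM in APP and from 3880 to 4260 in WT. The endothelial median was -0.08, with 0 of 10 called and sums from 70.7 to 73.7 CPM in APP and from 71.1 to 76.5 in WT. The perivascular macrophage markers, such as Mrc1 and Cd163, had a median of -0.05, 0 of the 9 counted were called, and their sum ran from 21.5 to 22.9 CPM in APP and from 21.5 to 23.5 in WT. Of 10 blood leukocyte markers 5 were counted, with at most 3 CPM summed in any library, and Cd3e, Cd3g, Ngp, Camp and Nkg7 had no counted transcript. The median of the 5 was 0.50 with 0 called, 2 being higher and 2 lower in both APP libraries.

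The families and partners of the 10 genes were then examined in 9 lists, in which 93 of 108 genes were counted. Of these 9 were called, all higher in APP, where 0.908% of all features were called in this direction. The other 84 were not called, and the median log2 fold change of the 93 genes was 0.19.

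Around Clec7a, 18 C-type lectin receptors and signalling genes were counted and 3 were called. Inpp5d, a lipid phosphatase that restrains this signalling, had a log2 fold change of 0.80 (adjusted p = 0.00702 by edgeR, whose test over all features gave each adjusted p below). The Src family kinase Lyn had one of 0.78 (adjusted p = 0.0210) and the exchange factor Vav1 one of 1.14 (adjusted p = 0.0185). Syk itself, the kinase downstream of dectin-1, had 0.47 (adjusted p = 0.333). The 7 lectin receptors counted besides Clec7a were not called. Clec1a had the largest log2 fold change of the list, 1.74, from 10 and 10 counts in WT and 29 and 22 in APP (adjusted p = 0.117), and Clec5a had 0.55 (adjusted p = 0.297). The APP libraries lay above WT for both, while the groups overlapped for Clec4a2, Clec4a3, Clec4n, Clec12a and Clec2d.

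Itgb2, the beta chain with which Itgax pairs, rose by 1.19 on the log2 scale (adjusted p = 0.00875), from 121 and 100 counts in WT to 202 and 179 in APP. It was the only call among the 8 integrin partners and ligands, and Itgam, the alpha chain of CD11b, had 0.60 (adjusted p = 0.0627). In the TAM system, the bridging ligand Pros1 was called with 0.76 (adjusted p = 0.00402). Gas6, the main ligand of Axl, had 0.00 (adjusted p = 0.995), Mertk 0.17 (adjusted p = 0.449) and Tyro3 -0.18 (adjusted p = 0.353).

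Among 25 counted tetraspanins other than Cd9 and Cd63, Cd53, which is known from leukocytes, was the 1 that passed (log2 fold change 0.83, adjusted p = 0.0106). Cd81 had 0.28 (adjusted p = 0.105), and the median of the family was 0.16. Of 7 galectin genes and ligands, Lgals3bp, a secreted glycoprotein that binds galectin-3, was counted 184 and 326 times in APP but 120 and 89 times in WT. Its log2 fold change was 1.69 (adjusted p = 0.00716). In CPM, APP-4 stood above APP-3, as for Lgals3 but also for Clec7a, Axl, Cd68, Cd9 and Cd63.

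None of the 10 counted osteopontin receptors and family genes passed both cut-offs, Cd44 having 0.40 (adjusted p = 0.349) and Itgav -0.05 (adjusted p = 0.882). Itgb5 passed the FDR but was below the fold change cut-off at 0.51 (adjusted p = 0.0332). The same held in other related lists for Tln1 (0.49, adjusted p = 0.017), Tspan12 (0.48, adjusted p = 0.0411) and Lgals8 (0.40, adjusted p = 0.0451). Of the LAMPs and scavenger receptors, Cd300lf, an inhibitory receptor for lipids, was counted 52 and 71 times in APP but 10 and 8 times in WT (log2 fold change 3.16, adjusted p = 0.00197), while Lamp1 had 0.20 and Lamp2 0.29 without a call. Among the small anchored proteins Cd48 was called, with 32 and 35 counts in APP and 12 and 11 in WT (log2 fold change 1.93, adjusted p = 0.0390). Of the relatives of Gpnmb and the MiT factors 0 of 4 were called, with Mitf at 0.16 (adjusted p = 0.757).

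**Figure D5:**
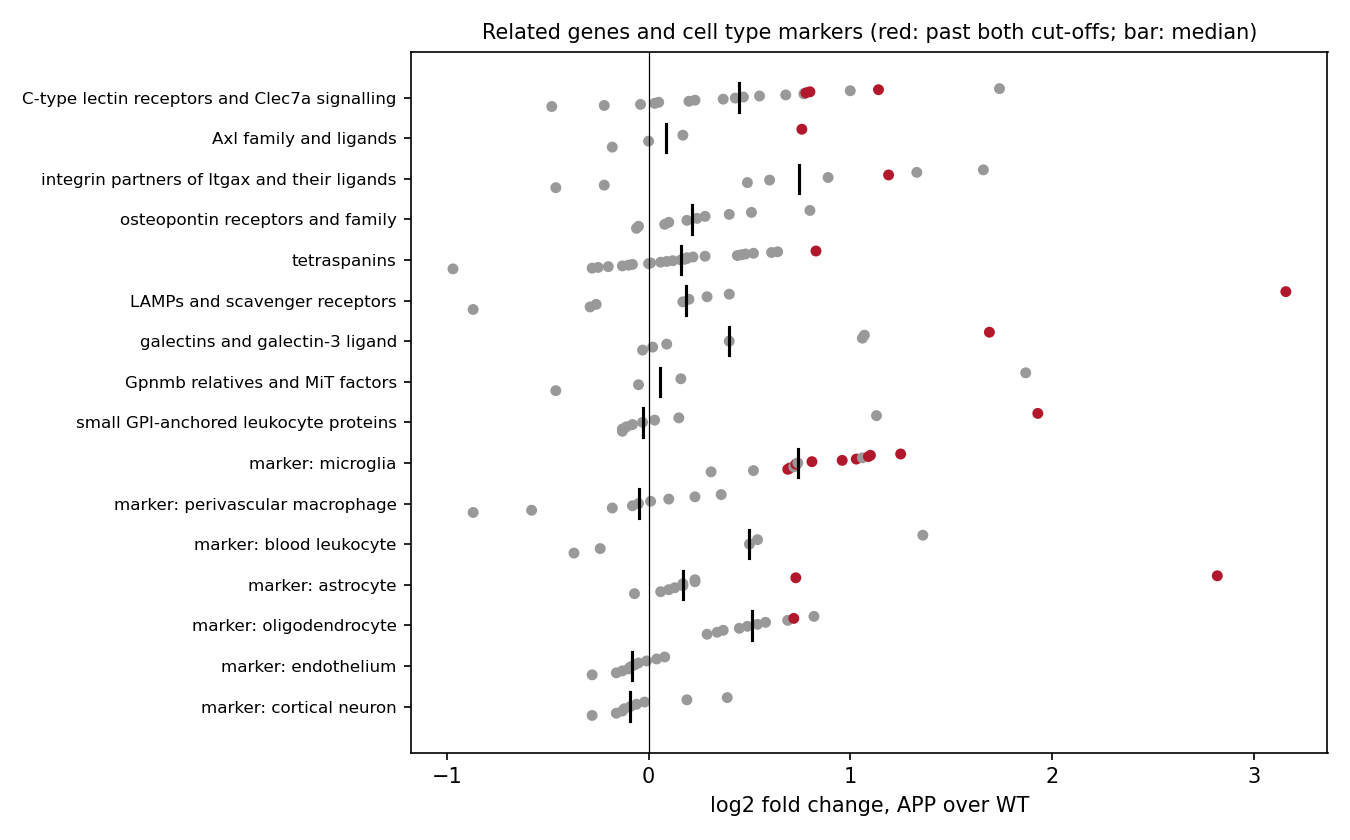
Log2 fold change, APP over WT, of each counted gene of the 9 related lists and the 7 cell type marker lists, with red points past both cut-offs and a black bar at the median of each list. The microglial markers lie between 0.31 and 1.25, while the endothelial markers lie between -0.28 and 0.08.

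Features like Clec7a and Cd9 over the 4 libraries were sought outside the set, so its own genes, such as Itgax, were left out. Among 16516 features above a mean of 1 CPM, those most like Clec7a and Cd9 were ranked by Euclidean distance of centred log2 CPM. For Clec7a they were Cst7 (distance 1.45), with 328 and 384 counts in APP and 2 and 0 in WT, the pseudogene Lamr1-ps1 (1.95), with 402 and 412 against 0 and 0 (whose reads could also belong to genes of like sequence), and Lilrb4a (2.82), with 64 and 62 against 8 and 7. For Cd9 they were Tgfbr2 (distance 0.0635), Lat2 (0.0713) and Fcgr3 (0.0878). The ranking rests on 4 libraries in 2 groups, and nothing is drawn from it about shared function.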

How the data were processed

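Ribosomal RNA was depleted from total cortical RNA of 4 mice and strand-specific paired reads were sequenced. The authors aligned reads to Ensembl mouse transcripts with FANSe2, allowing 7 mismatches, after removal of reads from ribosomal RNA, and deposited raw counts per transcript. The submitters' processing notes name CASAVA 1.8 and edgeR. The Ensembl release is not given in the sources used here. Left aside were 4 other columns that hold a value for each library, and also the authors' own fold changes, mean levels, p-values and FDR.

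The file writes many symbols in capitals, so rows were matched without regard to case (with exact case, 2 of the 10 genes would be found). Counts were summed per symbol. Transcripts with no symbol (22.0%, holding 26.8% of the counts) were kept as features of their own. Positions and transcript types come from GENCODE M21, to which 98.2% of transcripts were matched, and promoters from RefSeq. In the gene lists, each gene was represented by its feature with most counts.

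Counts were tested in R 4.3.3 with edgeR 4.0.16 (TMM, quasi-likelihood test, no covariate, p-values adjusted over all features after Benjamini and Hochberg), with DESeq2 1.42.0 as an alternative. The lowest total of a transcript was 10 counts, and no further filter was set. Intervals of a fold change are 95% intervals, not adjusted for the number of features tested. Their standard error was the size of the log2 fold change divided by the square root of edgeR's F statistic. For Clec7a and Itgax, with few WT counts, these intervals are narrower than counting error alone would make them. The tests were checked on simulated counts. The 2 WT columns were matched to mice by number and the 2 APP columns to their group. The 10 genes, the gene lists and the motifs were chosen with earlier results of these data known. Genes of the lists were named where they passed both cut-offs or are known partners of the 10 genes. Others, such as Itgam, Tyro3, Itgb5, Tln1, Tspan12, Lgals8, Lamp1, Lamp2, Clec1a, Clec2d, Clec4a2, Clec4a3, Clec4n, Clec5a and Clec12a, were chosen after their values were seen. The reads carry no molecular identifiers. The labels describe the libraries as separate samples without saying more of litters or batches. Some marker genes are not reported here and were left out of the lists and sums.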

Additional observations from a re-analysis of the deposited data

How the results depend on the processing

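With DESeq2, DESeq2 size factors, library totals without TMM, the likelihood ratio and exact tests of edgeR, and gene sums by GENCODE M21, the same number of the 10 genes (7) was called, and the log2 fold change of each stayed within 0.05 of the reported value. A fold change of at least 2 left 4 of the 10 genes, 5 of the related genes (in place of 9) and 131 of all features (in place of 225), by its construction. Requiring at least 10 counts in every library removed Clec7a and Lgals3 and left 6 called. The number of all features called was 443 with the likelihood ratio test and 397 with the exact test, and the cause was not tested. Leaving out 1 library at a time, the 10 genes had between 6 and 8 calls, the related genes between 6 and 16, the transcripts of the 10 genes between 6 and 8, and all features between 184 and 732, the highest without APP-3 (732) and without APP-4 (582). Among the related genes, the call count was 16 without APP-3 and 6 without WT-1. Such fits assume that the lone library varies like the other group. No log2 fold change of the 10 genes changed sign under any alternative. No paired analysis was possible because the APP columns are numbered 3 and 4 and the WT columns 1 and 2, so they share no number. Depth limits Clec7a, Itgax and Cd52 in WT, and Gpnmb and Lgals3 in all libraries, where counts were below 50; without WT-1 or WT-2, the log2 fold change of Cd52 was 1.91 or 2.71.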
